A study of Mus musculus with 38 samples.

Results

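Rnf144a, Rsad2 and Cmpk2 are 3 consecutive protein-coding genes on mouse chromosome 12, and they were followed together through 38 libraries of lung adenocarcinoma organoids to see whether they switched on together. They were 3 of the 55406 gene IDs that all 3 count tables share, and were chosen by position and by the fold change of Rnf144a and Rsad2, among the largest increases when organoids with floxed Foxa1 and Foxa2 received 4-hydroxytamoxifen (4-OHT). Values of that comparison are therefore given below as a description, with no test. Every library with Cmpk2 at 1 CPM or more also had Rsad2 at that level, and 3 libraries had Rsad2 alone of the pair. Rnf144a was on in a partly different set of libraries.

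Organoids are tumour cells grown as clusters in a gel (here Matrigel with L-WRN conditioned medium), and each of the 8 lines came from 1 tumour of mixed 129/B6 background. All lines carried KrasFSF-G12D, p53frt and Rosa-FSF-CreERT2, and added Foxa1flox and Foxa2flox together (lines 1027B, 1027D and 1292B), Foxa1flox alone (1552A, 1552B and 1552C) or Foxa2flox alone (1267B and 1526C). CreERT2 is a Cre recombinase that acts when 4-OHT is added, and cultures received 2 uM 4-OHT or ethanol vehicle for 72 hours. There were 5 4-OHT and 5 vehicle double-floxed libraries, 6 and 6 with floxed Foxa1, 4 and 4 with floxed Foxa2, and 2 in each of 4 groups of a hairpin experiment in line 1027B, with a hairpin against Nkx2-1 (shNKX2-1) or a scrambled hairpin (shScramble), each with 4-OHT or vehicle. Every line had at least 1 floxed allele, so gene loss cannot be told apart here from an action of 4-OHT or Cre. The hairpin experiment rests on 1 line, and where the labels do not name separate cultures p-values measure the spread between libraries, which may be technical.

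Rsad2 encodes viperin, a radical SAM enzyme that turns CTP into an analogue that ends the growing chain of viral RNA polymerases. Cmpk2 encodes a mitochondrial nucleotide kinase that phosphorylates CMP and UMP and thereby supplies CTP. Both are classic interferon-stimulated genes, and the pair is neighbouring and inverted in many vertebrate genomes. Rnf144a encodes an E3 ubiquitin ligase of the RING-between-RING family, known for marking the DNA repair kinase DNA-PKcs for degradation, and is not a classic interferon-stimulated gene. Foxa1 and Foxa2 are forkhead pioneer transcription factors of lung and gut epithelium, and Nkx2-1 is the lineage transcription factor of lung epithelium.

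In the GENCODE annotation of GRCm38, Rnf144a (ENSMUSG00000020642) occupies positions 26300964 to 26415254 of chromosome 12 on the minus strand, Rsad2 (ENSMUSG00000020641) 26442746 to 26456452 on the minus strand, and Cmpk2 (ENSMUSG00000020638) 26469204 to 26479837 on the plus strand. The span of all 3 is 178.9 kb. Rsad2 and Cmpk2 lie head to head, with start sites 12.8 kb apart. Rnf144a points the same way as Rsad2, and its start site lies 27.5 kb beyond the end of Rsad2 and 41.2 kb from the Rsad2 start site. The annotation holds 19 other genes within 1 Mb on each side, of which 1, the transcription factor gene Sox11, is protein coding. Of these, 13 had 0 counts in all libraries and 0 reached 1 CPM (a count scaled to library size) in 2 libraries. The antisense gene 4930549C15Rik lies in an intron of Rnf144a and had 1 count in all.

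**Figure D1:**
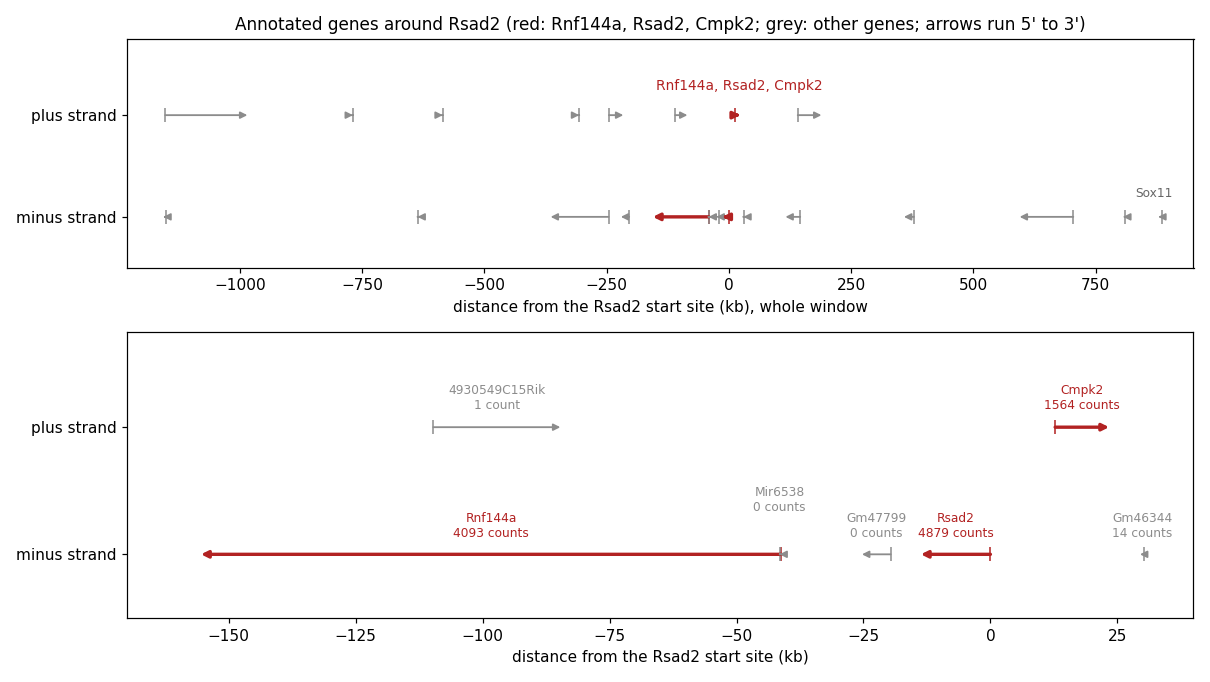
Genes on both strands around the Rsad2 start site, against distance from it in kb (upper panel, the whole window; lower panel, the 3 genes and those between and beside them, each with its total count over 38 libraries). Rsad2 and Cmpk2 start 12.8 kb apart and run away from each other, and no other gene in the lower panel had more than 14 counts.

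The promoters are shown because a shared control of neighbouring genes would be looked for there. Each is 300 bases from RefSeq (GRCm38.p6), read 5′ to 3′ on the strand of the gene, with 250 bases before the start site and 50 after it. Capitals mark matches to any of 4 motifs searched on both strands: the core of the interferon-stimulated response element (GAAA repeated after any 2 bases), TGTTTAC and TATTTAC (forkhead) and CACTTG (Nkx2 type). The windows are chr12:26456403-26456702 on the minus strand for Rsad2, chr12:26468965-26469264 on the plus strand for Cmpk2 and chr12:26415213-26415512 on the minus strand for Rnf144a.
Rsad2: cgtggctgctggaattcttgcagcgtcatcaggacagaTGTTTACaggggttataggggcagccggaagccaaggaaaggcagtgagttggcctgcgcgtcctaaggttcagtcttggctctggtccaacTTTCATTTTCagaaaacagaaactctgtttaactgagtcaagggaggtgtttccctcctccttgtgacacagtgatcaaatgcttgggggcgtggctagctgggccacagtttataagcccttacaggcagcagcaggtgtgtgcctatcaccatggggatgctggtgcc
Cmpk2: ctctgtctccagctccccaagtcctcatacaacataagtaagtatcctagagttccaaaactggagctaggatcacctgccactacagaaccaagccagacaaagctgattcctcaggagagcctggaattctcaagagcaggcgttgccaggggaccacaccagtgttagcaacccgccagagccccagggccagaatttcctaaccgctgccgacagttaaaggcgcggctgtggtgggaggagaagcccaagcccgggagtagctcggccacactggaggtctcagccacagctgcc
Rnf144a: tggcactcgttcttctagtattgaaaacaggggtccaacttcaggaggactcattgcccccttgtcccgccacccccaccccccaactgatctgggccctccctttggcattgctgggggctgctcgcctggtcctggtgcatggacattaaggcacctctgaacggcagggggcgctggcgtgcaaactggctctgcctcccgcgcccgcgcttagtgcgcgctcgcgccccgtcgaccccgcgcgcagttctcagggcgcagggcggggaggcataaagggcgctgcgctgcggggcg
The Rsad2 window held 2 matches. TTTCATTTTC, which is the response element core read on the other strand, began 120 bases before the start site. TGTTTAC began 212 bases before it. Of 32851 such windows over the genome, 3.44% held the response element core and 3.65% held TGTTTAC. Among 33 listed interferon-stimulated genes with a window, 20 held the response element core and 1 held TGTTTAC. The Cmpk2 and Rnf144a windows held none of the 4 motifs, of which TATTTAC was in 3.04% and CACTTG in 13.6% of windows. A match is a stretch of letters and not a measured binding site.

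Double-floxed libraries held between 18.3 and 31.96 M counts each, libraries with 1 floxed gene between 18.5 and 33.2 M, and hairpin libraries between 13.6 and 16.3 M. Foxa2 was at 0.327 to 6.16 CPM in every 4-OHT library of lines with floxed Foxa2, against 60.4 to 188 CPM in their vehicle libraries. Foxa1 was at 13.9 to 17.4 CPM in 4-OHT libraries of Foxa1-floxed lines, against 41.8 to 80.3 CPM with vehicle. In the 10 double-floxed libraries without a hairpin Foxa1 overlapped, at 8.88 to 18.3 CPM with 4-OHT and 17.3 to 87.3 CPM with vehicle. In the hairpin libraries Foxa1 was at 18.5 to 21.9 CPM with 4-OHT and 22.1 to 34.1 CPM with vehicle. Mitochondrial transcripts took 11.7% of the counts in shNKX2-1 4-OHT replicate 2 and 1.09% to 4.30% in the other 37 libraries. Epithelial markers (Epcam, Cdh1, Krt8, Krt18, Krt19, Cldn7) summed to 5218 to 18331 CPM over all libraries. A list of 12 leukocyte markers summed to 25.3 to 239 CPM per library, and of these Adgre1 and Tyrobp had 5 or fewer counts in each of the 10 groups. In bulk RNA, fewer cells of a type and less RNA per cell cannot be told apart.

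A gene was called on in a library at 1 CPM or more. By that measure Rnf144a was on in 13 of 38 libraries, Rsad2 in 12 and Cmpk2 in 9. Cmpk2 was never on without Rsad2, since all 9 of its libraries were also Rsad2 libraries. Rsad2 was on without Cmpk2 in 3 libraries, all of line 1027D at this threshold. All 3 genes were on together in 6 libraries, each of them a 4-OHT library. Rnf144a alone was on in 5, and Rsad2 with Cmpk2 but without Rnf144a in 3. None was on in 21 libraries. Split by treatment, at least 1 gene was on in 11 of 19 4-OHT libraries and in 6 of 19 vehicle libraries. This split includes the double-floxed libraries without a hairpin, whose comparison picked the genes. There at least 1 gene was on in 4 of 5 4-OHT libraries and 1 of 5 vehicle libraries. The share of all genes with such a split was not counted. At 0.5 CPM and at 2 CPM the number with all 3 on was 8 and 3, and Cmpk2 was without Rsad2 in 0 libraries at both. Rsad2 was without Cmpk2 in 3 libraries at 0.5 CPM, 2 of line 1027D and 1 of line 1552A. At 2 CPM it was so in 4 libraries, 2 of line 1027D and 1 each of lines 1027B and 1526C.

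**Figure D2:**
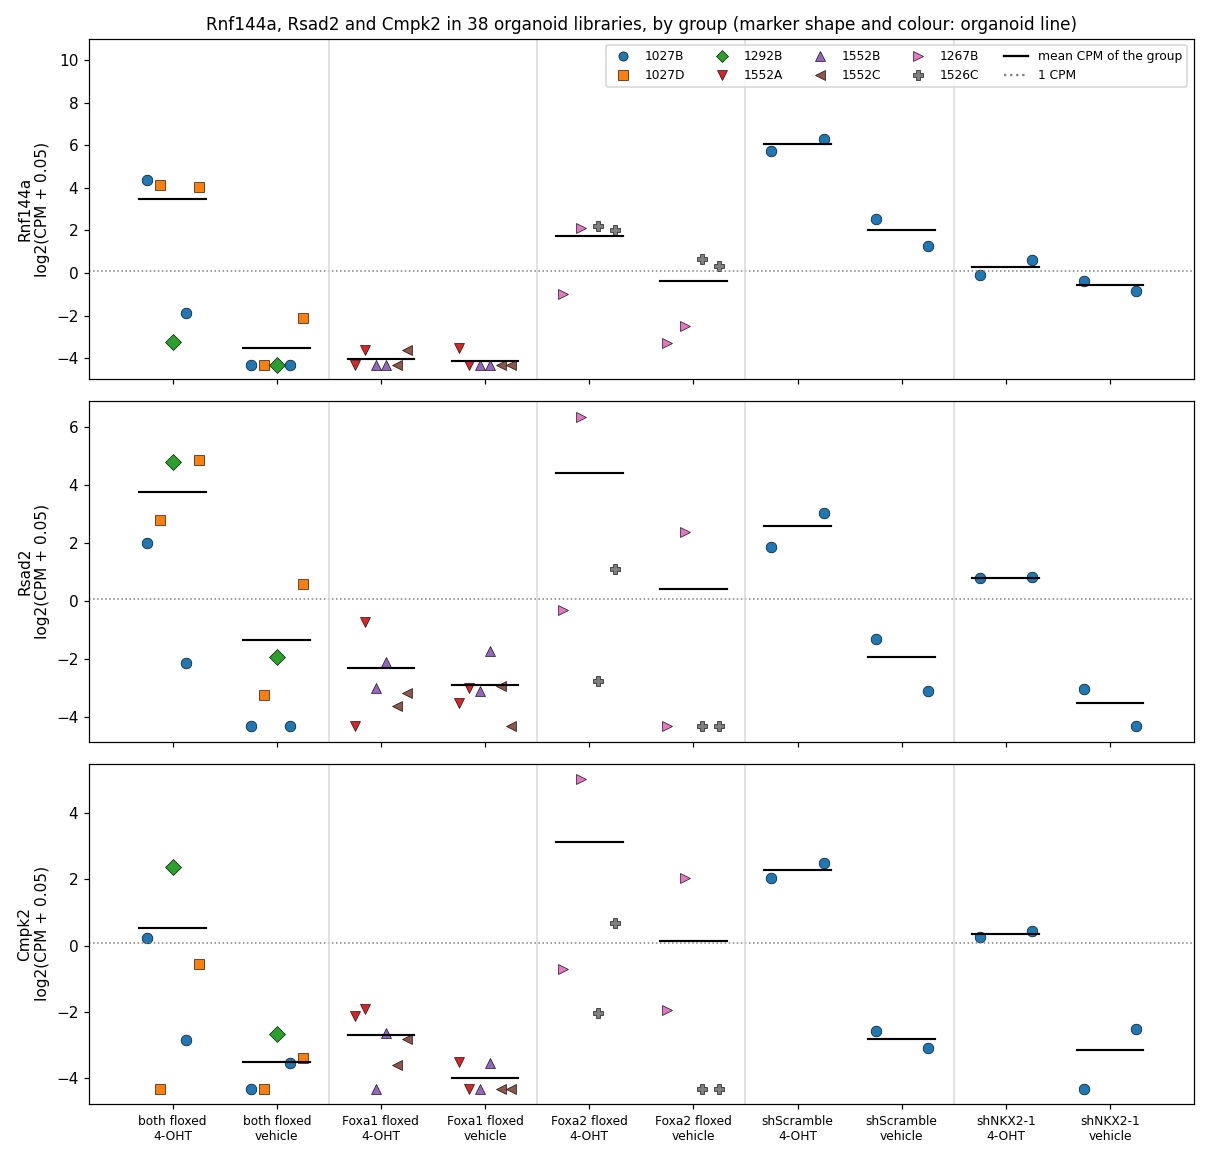
CPM of Rnf144a, Rsad2 and Cmpk2 in each of 38 libraries on a log2(CPM + 0.05) axis, by group, with marker shape and colour for the organoid line and a bar at the group's mean CPM. The 2 shScramble 4-OHT libraries lie highest for Rnf144a, 1 Foxa2-floxed 4-OHT library lies highest for Rsad2 and Cmpk2, and the 12 Foxa1-floxed libraries lie below 1 CPM throughout.

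In double-floxed organoids, the lines differed in which neighbour came on with 4-OHT. Rnf144a had 20.8 and 0.223 CPM in the 4-OHT libraries of line 1027B (replicates 1 and 4), 17.4 and 16.2 CPM in those of line 1027D (replicates 2 and 5) and 0.0563 CPM in that of line 1292B (replicate 3). With vehicle, Rnf144a had 0 counts in 4 of 5 libraries and 4 counts (0.181 CPM) in line 1027D replicate 5. It was thus high in 3 4-OHT libraries from 2 lines and near 0 in the others. Against a floor of 3 counts for the vehicle libraries of line 1027B together, which had 0, Rnf144a was at least 158.5-fold higher with 4-OHT, and replicate 4 alone, with 5 counts, was at least 3.52-fold higher. In line 1292B the gene held 1 count with 4-OHT and 0 with vehicle, which is under the floor in both.

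Rsad2 had 3.96 and 0.179 CPM with 4-OHT in line 1027B, 6.84 and 28.9 CPM in line 1027D and 27.6 CPM in line 1292B. With vehicle it had 0 CPM in both libraries of line 1027B, 0.0543 and 1.44 CPM in line 1027D and 0.212 CPM in line 1292B. Rsad2 was therefore high in line 1292B, where Rnf144a was not. In replicate 4 of line 1027B neither gene was on, although Foxa1 stood at 11.4 CPM and Foxa2 at 2.59 CPM there. That replicate carried the number 17992 in its library title, and replicate 1 of the same line 17699. These numbers are called runs here, though the labels do not say what they stand for. The part of the run in this difference was not tested.

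Cmpk2 had 1.12 and 0.0894 CPM with 4-OHT in line 1027B, 0 and 0.632 CPM in line 1027D and 5.18 CPM in line 1292B. The vehicle libraries held 4 Cmpk2 counts in all, between 0 and 0.106 CPM. The 4-OHT and vehicle values overlapped for each of the 3 genes. Fitted with line as a block, the log2 changes (4-OHT over vehicle) were 8.13 for Rnf144a (SE 1.48), 5.62 for Rsad2 (SE 1.196) and 4.59 for Cmpk2 (SE 1.21). These values picked the genes, and they stand beside 3.9% of 15198 genes that passed an adjusted p of 0.05 in this comparison (edgeR's quasi-likelihood test). Without the libraries of run 17992 the fitted log2 changes were 10.91, 7.14 and 5.70.

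Line 1027D set Cmpk2 apart from Rsad2. Of the summed Rsad2 and Cmpk2 counts, Cmpk2 supplied 0 of 138 in the 4-OHT library of replicate 2 (0%, 95% exact interval 0% to 2.64%) and 2.14% of 1029 in that of replicate 5 (1.34% to 3.22%). Its share in the vehicle library of replicate 5 was 3.03% of 33 counts (0.0767% to 15.8%). In line 1292B with 4-OHT the share was 15.8% (12.9% to 19.03%), and in line 1027B replicate 1 it was 22.1% (14.6% to 31.3%). In the other libraries with at least 20 such counts, which came from lines 1552A, 1267B, 1526C and the hairpin cultures, the share ran from 28% to 52.8%. The intervals of both 4-OHT libraries of line 1027D lie below those of all other 4-OHT libraries with at least 20 counts, and cover counting error only.

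Loss of Foxa1 alone was compared in 3 lines, and none of the 3 genes was on in any of these 12 libraries. Rnf144a had 2 counts over 6 4-OHT libraries and 1 count over 6 vehicle libraries, both within the floor of 3 counts. Rsad2 ranged from 0 to 0.551 CPM with 4-OHT (median 0.0675) and from 0 to 0.254 CPM with vehicle (median 0.0697), or 28 against 14 counts. Cmpk2 ranged from 0 to 0.214 CPM with 4-OHT (median 0.1002) and from 0 to 0.0374 CPM with vehicle (median 0), or 19 against 2 counts, a ratio of 8.78 with an exact counting interval of 2.12 to 77.7. Neither gene passed edgeR's quasi-likelihood test (adjusted p = 0.885 for Rsad2 and 0.585 for Cmpk2). The call count was thus 0 of 3, against 0.0118% of 16887 genes called. The counting interval of Cmpk2 lies above 1 but does not cover the spread between cultures, and with no filter on low counts Cmpk2 was called (log2 change 2.69, edgeR's quasi-likelihood test, adjusted p = 0.00726).

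Loss of Foxa2 alone was compared in 2 lines, and Rnf144a rose while the values of Rsad2 and Cmpk2 did not pass the test. Rnf144a had 0.459 and 4.26 CPM with 4-OHT in line 1267B (replicates 1 and 2) and 4.50 and 4.05 CPM in line 1526C (replicates 3 and 4). With vehicle it had 0.0516 and 0.126 CPM in line 1267B and 1.52 and 1.22 CPM in line 1526C. Rnf144a was thus already on in line 1526C with vehicle, and each 4-OHT library lay above both vehicle libraries of its own line. The fitted log2 change was 2.67 (SE 0.67, edgeR's quasi-likelihood test, adjusted p = 0.0450), and 3.43% of 16887 genes were called. This call was lost in 19 of 32 alternatives, where the adjusted p reached 0.105 among those that left out 1 library, 0.243 with counts summed per line, and 1 with no block for line. The single libraries whose absence ended it were Foxa2_vehicle replicates 1 to 4, Foxa2_4OHT replicates 3 and 4, Foxa1_vehicle replicates 1, 5 and 6 and Foxa1_4OHT replicates 2, 5 and 6.

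Rsad2 had 0.764 and 82.1 CPM with 4-OHT in line 1267B and 0.0964 and 2.12 CPM in line 1526C. With vehicle it had 0 and 5.17 CPM in line 1267B and 0 CPM in both libraries of line 1526C. The library at 82.1 CPM, replicate 2, held the highest Rsad2 value of all 38, and its vehicle partner was the only Foxa2-floxed vehicle library with any Rsad2 count. Cmpk2 had 0.560 and 32.6 CPM with 4-OHT in line 1267B and 0.193 and 1.57 CPM in line 1526C. With vehicle it had 0.206 and 4.04 CPM in line 1267B and 0 CPM in both libraries of line 1526C. The same replicate 2 libraries were high for both genes in both treatments.

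The fitted log2 changes were 4.33 for Rsad2 (SE 1.36, adjusted p = 0.0984) and 3.48 for Cmpk2 (SE 1.06, adjusted p = 0.0903), neither called by edgeR's quasi-likelihood test. With a block of line and run both were called, at log2 changes of 4.57 (adjusted p = 0.00857) and 3.30 (adjusted p = 0.0111). Both genes reached 0.5 CPM in only 1 Foxa2-floxed vehicle library, so they could pass the low-count filter only through 4-OHT libraries. Calls of these 2 genes in these lines, under any setting, are therefore given as description. Within line 1267B run 17992, the ratio of 4-OHT to vehicle was 15.9 for Rsad2 (13.2 to 19.2) and 8.08 for Cmpk2 (6.55 to 10.1), with 95% exact counting intervals that do not cover the spread between cultures. In line 1526C, where vehicle had 0 counts of both, Rsad2 was at least 18.2-fold and Cmpk2 at least 14.6-fold higher with 4-OHT, against 3 counts over the 2 vehicle libraries. Most of those counts came from replicate 4, while replicate 3 alone had 3 Rsad2 counts, at the floor, and was at least 3.36-fold higher for Cmpk2 on 6 counts. Leaving out Foxa2_4OHT replicate 1 or Foxa2_vehicle replicate 2 also brought both genes past the threshold.

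The difference between the Foxa2 and Foxa1 effects was itself tested. It did not pass for any of the 3 genes, against 0.266% of 16887 genes called. For Rsad2 the fitted difference was 3.52 on the log2 scale (Foxa2-floxed minus Foxa1-floxed, edgeR's quasi-likelihood test, adjusted p = 0.773). Rnf144a and Cmpk2 had too few counts in the Foxa1-floxed lines to place the difference. The higher Rnf144a in the Foxa2-floxed lines is thus not shown to be particular to Foxa2.

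The hairpin experiment used further libraries of line 1027B, and with the scrambled hairpin all 3 genes rose with 4-OHT. Rnf144a had 52.2 and 79.3 CPM with 4-OHT, against 5.77 and 2.36 CPM with vehicle. It was already on with vehicle here, while both vehicle libraries of line 1027B without a hairpin had 0 Rnf144a counts. Rsad2 had 3.61 and 8.19 CPM with 4-OHT, against 0.353 and 0.0675 CPM with vehicle. Cmpk2 had 4.04 and 5.61 CPM with 4-OHT, against 0.118 and 0.0675 CPM with vehicle. Both 4-OHT libraries lay above both vehicle libraries for each gene, and the share of all genes with this order was not counted. The log2 changes were 4.01 for Rnf144a (SE 0.48, adjusted p = 0.00391), 4.71 for Rsad2 (SE 0.79, adjusted p = 0.0150) and 5.56 for Cmpk2 (SE 0.74, adjusted p = 0.00577) by edgeR's quasi-likelihood test, where 4.33% of 14465 genes were called. Rsad2 and Cmpk2, with 7 and 3 vehicle counts under shScramble, could pass the low-count filter only through their 4-OHT groups, so the number called over the 3 genes is no result. The Cmpk2 vehicle value rests on 3 counts, and its ratio of 50.9 has an exact counting interval of 17.1 to 249.5. Rnf144a was called under each alternative, while Rsad2 and Cmpk2 lost the call without any 1 of shScramble_vehicle replicate 1, shScramble_vehicle replicate 2 or shScramble_4OHT replicate 2 (adjusted p 0.0590 to 0.138).

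With the Nkx2-1 hairpin, Rsad2 and Cmpk2 rose with 4-OHT and Rnf144a did not pass the test. Nkx2-1 stood at 181 and 207 CPM in shNKX2-1 4-OHT libraries, against 358 and 407 CPM in shScramble 4-OHT libraries. Rsad2 had 1.69 and 1.72 CPM with 4-OHT, against 0.0731 and 0 CPM with vehicle (log2 change 5.34, SE 1.07, adjusted p = 0.0258). Cmpk2 had 1.15 and 1.31 CPM with 4-OHT, against 0 and 0.125 CPM with vehicle (log2 change 4.04, SE 0.83, adjusted p = 0.0276). Rnf144a had 0.879 and 1.47 CPM with 4-OHT, against 0.731 and 0.50002 CPM with vehicle (log2 change 0.92, SE 0.60, adjusted p = 0.361). These are values of edgeR's quasi-likelihood test, which called 6.35% of 14465 genes, and Rsad2 and Cmpk2 entered it through the 4-OHT groups as above. Vehicle counts were 1 for Rsad2 and 2 for Cmpk2 over both libraries, so the ratios of 50.5 and 18.1 carry exact counting intervals of 8.62 to 2038 and 4.63 to 155.8. The Rsad2 call was lost without shNKX2-1_vehicle replicate 1 or 2 and the Cmpk2 call without any 1 of 6 libraries, all but the shNKX2-1 4-OHT ones (adjusted p 0.0577 to 0.182).

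Set against the scrambled hairpin in 4-OHT cultures, Rnf144a was lower with the Nkx2-1 hairpin. The log2 change was -5.81 (SE 0.55, adjusted p = 0.00583, edgeR's quasi-likelihood test), with both shNKX2-1 libraries below both shScramble libraries, and 1.58% of 14465 genes were called. Without shScramble_4OHT replicate 2 the adjusted p was 0.064. Rsad2 and Cmpk2 did not pass (fitted log2 changes -1.79 and -1.97, SE 0.64 and 0.55, adjusted p = 0.273 and 0.157), although Cmpk2 passed without shNKX2-1_4OHT replicate 1 (-1.89, adjusted p = 0.0483). In vehicle cultures Rnf144a had 0.731 and 0.50002 CPM with shNKX2-1 and 5.77 and 2.36 CPM with shScramble, a log2 change of -2.73 (SE 0.55) that did not pass (adjusted p = 0.119) and that DESeq2 called (adjusted p = 4.009e-04). In that comparison 0.235% of genes were called. Rsad2 and Cmpk2 had at most 7 counts over both vehicle libraries of either hairpin. Mitochondrial transcripts took 11.7% of counts in shNKX2-1 4-OHT replicate 2, and their part in these values was not tested; without that library the Rnf144a change with 4-OHT was -6.21.

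The change of the 4-OHT effect with the hairpin was tested as an interaction. For Rnf144a it was -3.09 on the log2 scale (shNKX2-1 minus shScramble, SE 0.77), which did not pass in edgeR's quasi-likelihood test (adjusted p = 0.5262) and passed in DESeq2 (adjusted p = 0.0237). No gene of 14465 (0.0%) was called by edgeR, 782 had an unadjusted p under 0.05, and DESeq2 called 84. For Rsad2 and Cmpk2 the interaction was 0.63 and -1.52, with adjusted p of 0.904 and 0.866. The loss of the Rnf144a call under shNKX2-1 is therefore not shown by edgeR to be a different response.

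**Figure D3:**
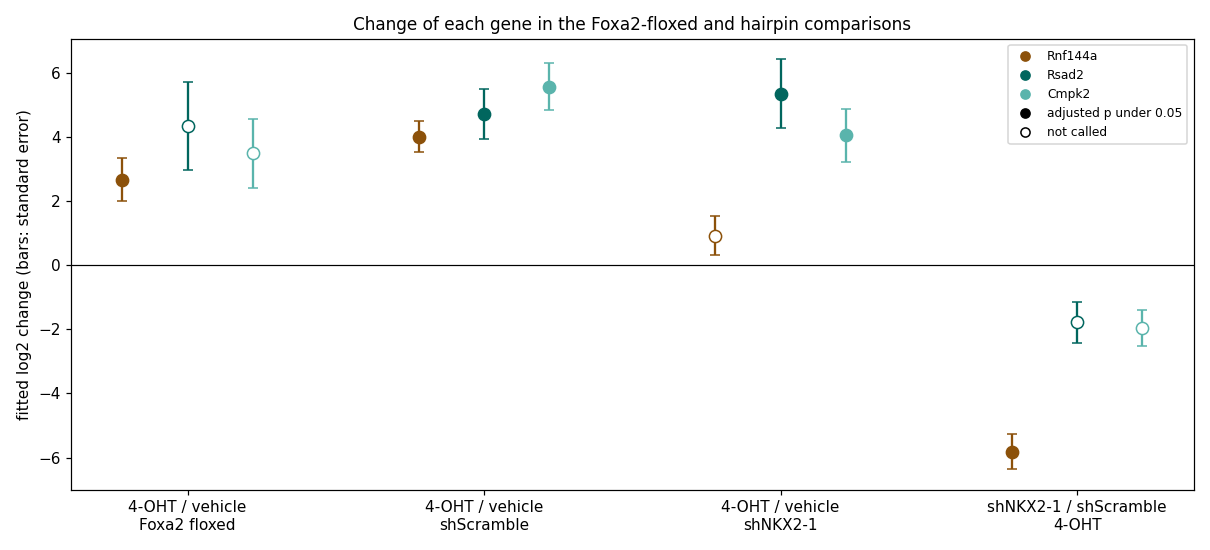
Fitted log2 changes of Rnf144a, Rsad2 and Cmpk2 with standard errors in 4 comparisons that were tested, filled where the adjusted p was under 0.05 and open where it was not. All 3 genes are filled under shScramble, Rsad2 and Cmpk2 under shNKX2-1, and Rnf144a alone in the Foxa2-floxed lines and between the hairpins with 4-OHT. Rsad2 and Cmpk2 entered the Foxa2-floxed and hairpin tests only through 4-OHT groups, so the number filled is no result.

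By mean level, the groups came in a different order for Rnf144a than for its neighbours. Rnf144a was highest in shScramble 4-OHT libraries (65.8 ± 19.2 CPM, SD, n = 2), then double-floxed 4-OHT (10.95 ± 10.01, n = 5), shScramble vehicle (4.07 ± 2.41, n = 2), Foxa2-floxed 4-OHT (3.32 ± 1.91, n = 4) and shNKX2-1 4-OHT (1.17 ± 0.419, n = 2). Ranges of neighbouring groups in that order overlapped except between the first and second and between shNKX2-1 vehicle (0.616 ± 0.164, n = 2) and double-floxed vehicle (0.0361 ± 0.0808, n = 5). Rsad2 was highest in Foxa2-floxed 4-OHT (21.3 ± 40.6 CPM, n = 4), then double-floxed 4-OHT (13.5 ± 13.7, n = 5), shScramble 4-OHT (5.90 ± 3.24, n = 2) and shNKX2-1 4-OHT (1.70 ± 0.0184, n = 2). Of neighbouring groups, only the shScramble and shNKX2-1 4-OHT libraries did not overlap. Cmpk2 ran from Foxa2-floxed 4-OHT (8.73 ± 15.9 CPM, n = 4) through shScramble 4-OHT (4.82 ± 1.11, n = 2) to double-floxed 4-OHT (1.405 ± 2.16, n = 5), and every pair of neighbours in its order overlapped. The first places of Rsad2 and Cmpk2 rest on Foxa2_4OHT replicate 2: without it the group means were 0.992 ± 1.03 CPM for Rsad2 and 0.774 ± 0.712 CPM for Cmpk2 (SD, n = 3), below double-floxed, shScramble and shNKX2-1 4-OHT libraries. These levels were scaled within 3 separate tables.

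Set against transcript length, the balance between the 3 genes differed between groups. In shScramble 4-OHT libraries the mean level per kb of exon was 8.96 CPM for Rnf144a, 1.36 for Rsad2 and 1.16 for Cmpk2. In double-floxed 4-OHT libraries it was 1.49 for Rnf144a, 3.11 for Rsad2 and 0.337 for Cmpk2. In Foxa2-floxed 4-OHT libraries it was 0.452 for Rnf144a, 4.91 for Rsad2 and 2.10 for Cmpk2, but without replicate 2 it was 0.409 for Rnf144a, 0.229 for Rsad2 and 0.186 for Cmpk2, which turns the order round.

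Across all 38 libraries, log2 CPM centred within line gave a Pearson r of 0.905 between Rsad2 and Cmpk2, of 0.745 between Rnf144a and Rsad2 and of 0.626 between Rnf144a and Cmpk2. Among 16760 genes, Rsad2 was the gene most correlated with Cmpk2 (rank 1), and Cmpk2 ranked 3 for Rsad2. From the side of Rnf144a, Rsad2 ranked 52 and Cmpk2 ranked 326. In the 28 libraries outside the double-floxed comparison, r was 0.932 for Rsad2 with Cmpk2, 0.688 for Rnf144a with Rsad2 and 0.699 for Rnf144a with Cmpk2. After the group means were removed as well, r was 0.854, 0.465 and 0.261 for the same pairs. These are descriptions, since libraries of a line share a tumour and in part a run, and many values are near 0.

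**Figure D4:**
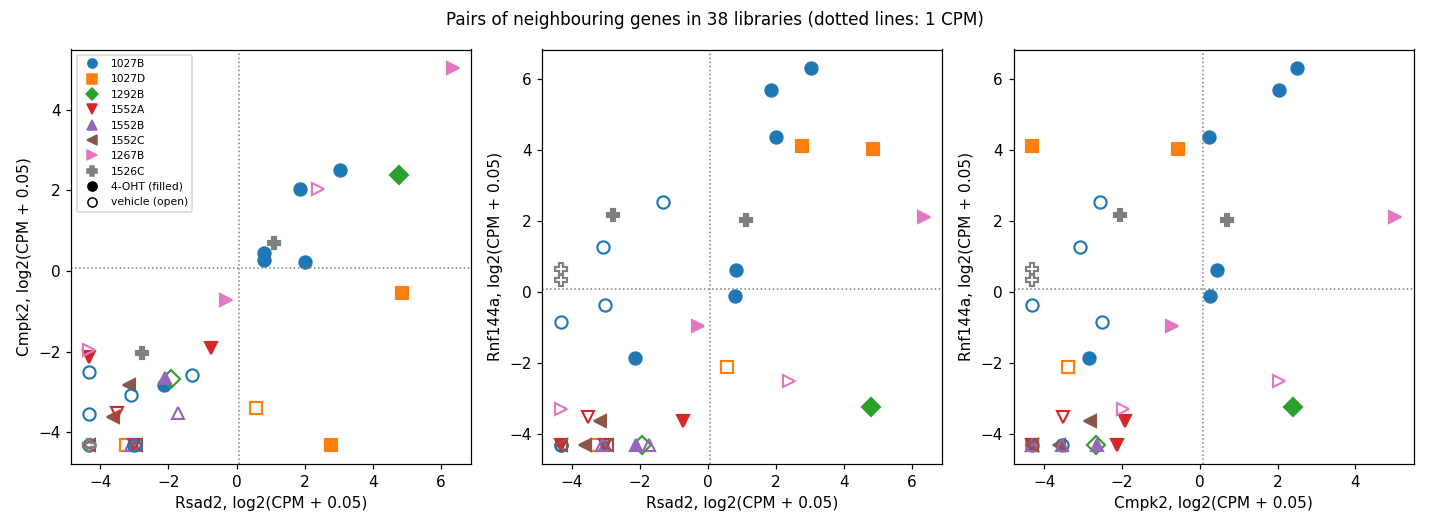
CPM of each pair of genes in 38 libraries on log2(CPM + 0.05) axes, filled for 4-OHT and open for vehicle, with dotted lines at 1 CPM. Rsad2 and Cmpk2 lie along 1 band apart from the libraries of line 1027D, while for Rnf144a libraries fill both the upper left (5 on without Rsad2) and the lower right (4 with Rsad2 on and not Rnf144a).

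The genes most like each member over the 38 libraries differed between Rnf144a and its neighbours. For Rnf144a they included Mlana, a melanosome protein gene (r = 0.926), the collagen gene Col6a1 (0.892), the mast cell tryptase gene Tpsab1 (0.884) and the nicotinic receptor subunit gene Chrna10 (0.851). In the 28 libraries outside the double-floxed comparison, Mlana (0.899) and Tpsab1 (0.878) were among its 5 most correlated genes and Col6a1 and Chrna10 were not. Mlana averaged 7.35 ± 7.996 CPM in double-floxed 4-OHT libraries and 0.191 ± 0.200 CPM in the vehicle ones (SD, n = 5 each). That is the comparison that picked Rnf144a. In Foxa2-floxed lines Mlana averaged 5.07 ± 2.42 CPM with 4-OHT and 3.90 ± 4.22 CPM with vehicle (n = 4 each). Under shScramble it averaged 7.23 ± 0.927 and 0.842 ± 0.142 CPM (n = 2 each), and in Foxa1-floxed lines 0.163 ± 0.195 and 0.192 ± 0.187 CPM (n = 6 each). For Rsad2, leaving out Cmpk2, they were Sp100, a nuclear body protein gene (0.935), Ube2l6, the conjugating enzyme of ISG15 (0.912), Ifi44 (0.893), Ddx58, the RNA sensor RIG-I (0.885), and Apol9b (0.875). For Cmpk2, after Rsad2, they were Sp100 (0.846), the glucose transporter gene Slc5a1 (0.822), the interleukin receptor gene Il5ra (0.821), Phf11b (0.82) and Ddx58 (0.818).

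The interferon pathway gave the same contrast by correlation. Of 41 interferon-stimulated genes measured in all tables, 25 were among the 100 genes most correlated with Rsad2, 22 among those of Cmpk2 and 0 among those of Rnf144a. Their median r was 0.797 with Rsad2, 0.731 with Cmpk2 and 0.416 with Rnf144a, where the median of all genes was 0.011, 0.013 and 0.024. The median log2 CPM of these 41 genes ranged from 2.27 to 7.06 in the 12 libraries with Rsad2 on and from 0.04 to 3.05 in the 26 without. For Cmpk2 it ranged from 2.27 to 7.06 in the 9 libraries with the gene on and from 0.04 to 5.68 in the 29 without, which also overlap. For Rnf144a it ranged from 0.74 to 7.06 in the 13 libraries with the gene on and from 0.04 to 5.94 in the 25 without. Both ranges for Rnf144a overlap over most of their length.

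**Figure D5:**
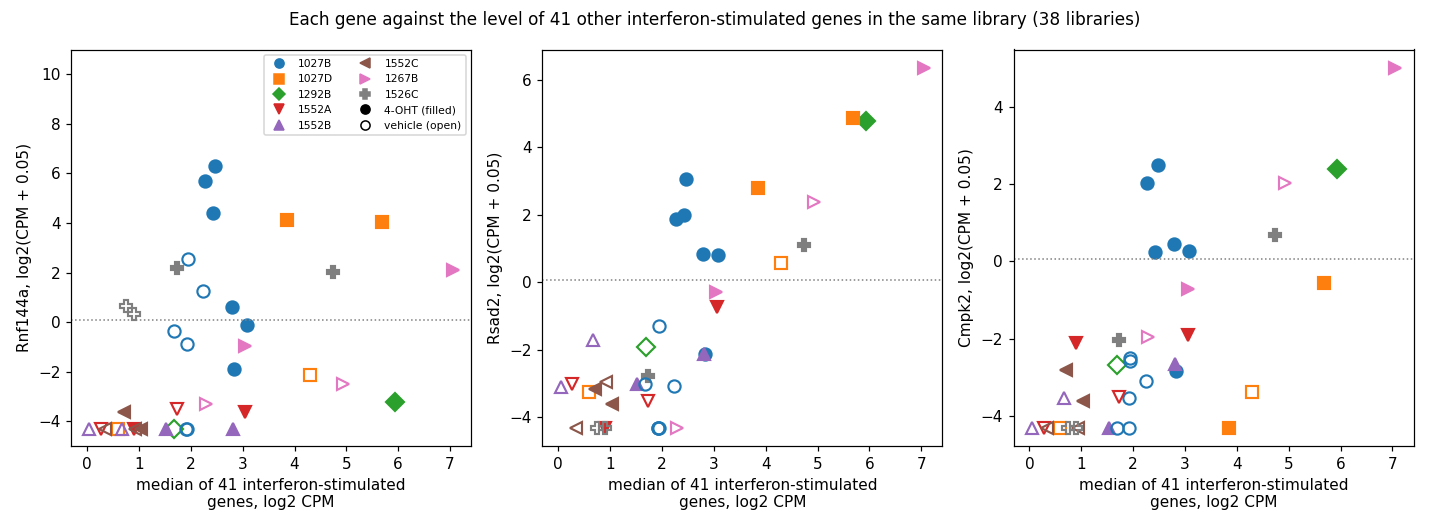
Each gene's level as log2(CPM + 0.05) against the median log2 CPM of 41 other interferon-stimulated genes in the same library, filled for 4-OHT and open for vehicle. The line 1292B 4-OHT library lies at an interferon-stimulated level of 5.94 with Rnf144a at 0.0563 CPM, and the shScramble 4-OHT libraries combine a level of 2.27 to 2.47 with Rnf144a at 52.2 and 79.3 CPM.

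By line, higher interferon-stimulated levels with 4-OHT went with higher Rnf144a in lines 1027D, 1267B and 1526C. This was not so in lines 1292B, 1552A, 1552B and 1552C. In line 1027B both were also higher with 4-OHT in each run and under each hairpin. There Rnf144a was higher by little in run 17992 (0.223 against 0 CPM), and under shNKX2-1 it did not pass the test. In line 1292B the median log2 CPM of these genes was 5.94 with 4-OHT and 1.68 with vehicle. Rnf144a held 1 count and 0 counts there. In line 1552B the medians were 2.17 and 0.36, with 0 Rnf144a counts in both. In line 1027B they were 2.425 and 1.92 in run 17699, and 2.83 and 1.91 in run 17992. Rnf144a with 4-OHT was at 20.8 and 0.223 CPM in these runs. Under shScramble the medians were 2.37 with 4-OHT and 2.09 with vehicle. Rnf144a there was at 52.2 and 79.3 CPM with 4-OHT and 5.77 and 2.36 CPM with vehicle. In line 1027D they were 3.85 and 0.59 in run 17699, and 5.68 and 4.30 in run 17992, for 4-OHT and vehicle. In line 1267B of run 17992 they were 7.06 with 4-OHT and 4.93 with vehicle, and in run 17699 3.05 and 2.28. In line 1526C they were 3.24 with 4-OHT and 0.82 with vehicle. Taken singly, its 4-OHT libraries were at 1.73 and 4.74, with Rnf144a at 4.50 and 4.05 CPM. The vehicle libraries of run 17992 in lines 1027D and 1267B were thus themselves high, and these were the only vehicle libraries with Rsad2 on. The summed leukocyte markers ran from 43.1 to 139.3 CPM in Foxa2-floxed 4-OHT libraries and 25.3 to 143.5 CPM in the vehicle ones, with 5 of 12 markers at 5 or fewer counts in both groups. Of the 7 leukocyte markers tested there, Csf1r and Itgam were called higher with 4-OHT (log2 changes 2.37 and 2.22, edgeR's quasi-likelihood test, adjusted p = 0.00756 and 0.0403), against 1.89% of all genes. Csf1r was also called higher in double-floxed lines (log2 change 4.49, adjusted p = 0.0114), where 1.99% of genes were, and not in Foxa1-floxed lines (2.31, adjusted p = 0.106). Of the 7 leukocyte markers tested in double-floxed lines, 5 were fitted higher and 2 lower, Lyz2 (-3.91) and Cd14 (-1.35), neither called. The summed leukocyte markers there had medians of 81.2 CPM with 4-OHT and 133.8 CPM with vehicle, over overlapping ranges. The part of leukocyte RNA in the interferon levels was not tested.

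Along the pathway itself, none of 9 interferon ligand genes, type I, II or III, had enough counts to be tested in any table. Of 6 receptor genes, 0 were called in any of the 9 comparisons, a count that the shares of all genes called, 0.0% to 6.35%, would also give. In Foxa2-floxed lines 2 of 21 sensors and signal carriers were called higher with 4-OHT, against 1.89% of all genes, the transcription factor genes Irf5 (log2 change 2.62, adjusted p = 0.00488) and Irf7. Of 20 sensors and signal carriers tested under shScramble, 2 were called higher with 4-OHT, against 1.67% of all genes. Cgas, the cytosolic DNA sensor, averaged 10.7 ± 1.69 CPM with 4-OHT and 2.06 ± 0.914 CPM with vehicle (SD, n = 2 each, adjusted p = 0.0174), and Tmem173, the adaptor STING, 28.6 ± 1.21 and 11.9 ± 2.33 CPM (adjusted p = 0.0434). Of 41 other interferon-stimulated genes under shScramble, 4 were called higher (Parp14, Gbp2, Oasl2 and Gbp7) and 2 lower (Mx1 and Ifit2), against 1.67% and 2.67% of all genes. Their median log2 change was 0.66, against 0.02 for all genes tested. Without any 1 of the 4 shScramble libraries 0 were called in either direction, without either shNKX2-1 4-OHT library 7 were called higher, and without either shNKX2-1 vehicle library 1 was called lower.

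Under shNKX2-1, 12 of the 41 were called higher with 4-OHT and 0 lower, against 2.72% and 3.63% of all genes, with a median log2 change of 1.27. They included the ADP-ribosyltransferase gene Parp14 (74.2 ± 17.2 CPM with 4-OHT and 5.86 ± 1.35 CPM with vehicle, adjusted p = 0.00109), Trim30a (15.3 ± 3.51 and 1.00 ± 0.445 CPM, adjusted p = 0.00263) and Ddx58 (54.6 ± 6.203 and 12.6 ± 0.0104 CPM, adjusted p = 0.00297; SD, n = 2 each, edgeR's quasi-likelihood test). The count was 3 without either shNKX2-1 vehicle library and 6 without either shScramble 4-OHT library. Between hairpins, 2 of 41 were higher with 4-OHT (Slfn2 and Parp14) and 1 with vehicle (Slfn2), against 0.968% and 0.207% of all genes, and 0 lower, against 0.608% and 0.0277%. The difference of the 4-OHT effects between hairpins was called for 0 of 41 by edgeR and 3 by DESeq2, and for 9 by edgeR without shNKX2-1_4OHT replicate 1. In Foxa2-floxed lines the median log2 change was 1.90. There 2 of 45 were called higher, Zbp1 and Irf7, against 1.89% of all genes, and 0 lower, against 1.55%. Between 0 and 33 were called when single libraries were left out (33 without Foxa2_4OHT replicate 1, 15 without Foxa2_vehicle replicate 2 and 0 without any of the other 6 Foxa2-floxed libraries). Fitted higher with 4-OHT were 45 of 45 in Foxa2-floxed, 45 of 46 in double-floxed and 41 of 45 in Foxa1-floxed lines. The count was 36 of 41 under shScramble and 37 of 41 under shNKX2-1. The share of all genes fitted higher was not counted. The difference between the Foxa2 and Foxa1 effects was called for 0 of 45, against 0.0888% of all genes higher and 0.178% lower. In double-floxed lines 0 of 46 (against 1.99% of all genes higher and 1.91% lower) and in Foxa1-floxed lines 0 of 45 (against 0.00592% higher and 0.00592% lower) were called by edgeR, with medians of 1.45 and 0.80, where 3088 of 15198 and 1928 of 16887 genes had an unadjusted p under 0.05. DESeq2 called 12 higher in double-floxed and 1 in Foxa1-floxed lines.

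Of the RING-between-RING ligases, Rnf144b, the paralog of Rnf144a, fell in Foxa2-floxed lines, with 8.26 ± 7.78 CPM with 4-OHT and 15.4 ± 11.7 CPM with vehicle (n = 4 each, edgeR's quasi-likelihood test, adjusted p = 0.0359, 1 of 13 called lower against 1.55% of all genes). Under shScramble Rnf144b rose, with 8.19 ± 1.91 CPM with 4-OHT and 1.55 ± 0.564 CPM with vehicle (n = 2 each, adjusted p = 0.0455, 1 of 12 called higher against 1.67% of all genes). Under shNKX2-1, Cul9 fell, with 0.528 ± 0.4003 CPM with 4-OHT and 4.20 ± 0.989 CPM with vehicle (n = 2 each, adjusted p = 0.0291, 1 of 12 called lower against 3.63% of all genes). No other call was made among the 12 or 13 ligases tested in each of the 9 comparisons. Of 18 other genes of pyrimidine nucleotide supply, including Cmpk1, the cytosolic counterpart of Cmpk2, 0 were called in any comparison, where between 0.0% and 6.35% of all genes were. Cmpk1 averaged 76.8 ± 18.2 CPM in double-floxed 4-OHT libraries and 122 ± 38.8 CPM in the vehicle ones (SD, n = 5 each).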

How the data were processed

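The deposited tables hold raw counts per Ensembl gene, made by the authors with no normalisation, in 38 libraries. The submitters' processing notes name STAR 2.7.6a, featureCounts 1.5.1, DESeq2 and GRCm38 without their roles. The sources used here do not give the strand setting, the handling of multiply mapped reads or the annotation release. Symbols matched 99.4% to 99.5% of IDs. Days after treatment are given only for crosslinked cells, so the time of RNA collection is unknown.

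The members, lists and tests were chosen with earlier results of these data known. Changes were fitted with edgeR 4.0.16 under R 4.3.3 (quasi-likelihood F test after TMM scaling and filterByExpr, Benjamini-Hochberg over all genes tested, called at an adjusted p under 0.05). Organoid line, named in the labels, was the block in the floxed fits, the hairpin fit had 4 group means, and the script was tested on simulated data. All 3 genes passed the filter in each table, which a gene can do through 1 group alone. CPM was scaled by TMM, and log2 CPM used a prior count of 2. Counts of 0 were set against a floor of 3 counts, and 95% intervals are exact and cover counting error only. Replicates were numbered in accession order, which pairs nothing. Named were the 3 genes, for each the 5 genes with the highest r among those at 0.5 CPM or more in at least 4 libraries, and up to 4 list members with the smallest adjusted p; 1 gene of these is not reported here. Alternatives were RLE scaling, DESeq2 1.42.0, no filter, other blocks, summed lines and left-out libraries, lines or run.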

Additional observations from a re-analysis of the deposited data

Results flagged for a closer look

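Within groups of 4 to 10 libraries, 11 of 18 gene and group combinations held 1 library far from the rest. The cut-off used gives about 1 in 20 only for normally distributed values. Many values here rest on a few counts and each group mixes lines, so that rate does not hold for them. In Foxa2-floxed lines, replicate 2 of line 1267B stood apart in both treatments: Rsad2 was at 82.1 CPM with 4-OHT, with the next library at 2.12, and at 5.17 CPM with vehicle, where the rest were at 0. Cmpk2 in the same libraries was at 32.6 CPM with 4-OHT and 4.04 CPM with vehicle, with the next libraries at 1.57 and 0.206. Rnf144a was low in 4-OHT replicate 1 of that line, at 0.459 CPM, with the next library at 4.05.

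In double-floxed lines, Cmpk2 was at 5.18 CPM in 4-OHT replicate 3 (line 1292B), with the next library at 1.12. Vehicle replicate 5 (line 1027D) was high for Rsad2, at 1.445 CPM against 0.212 in the next, and held the 4 Rnf144a counts of its group (0.181 CPM). In Foxa1-floxed lines, Rsad2 was at 0.551 CPM in 4-OHT replicate 2, with the next at 0.181, and at 0.254 CPM in vehicle replicate 4, with the next at 0.0796. Rnf144a was at 0.0374 CPM in Foxa1-floxed vehicle replicate 1, which is 1 count.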

How the results depend on the processing

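In Foxa2-floxed lines the Rnf144a call was lost with no replicate block (2.17), with counts summed per line (2.81) and without line 1267B (1.64), 1526C (4.63), 1552A (2.65), 1552B (2.67) or 1552C (2.68), and its value ran from 1.78 to 3.08 without single libraries. With a replicate block of line and run, Rsad2 (4.57) and Cmpk2 (3.30) passed there, as they did by DESeq2 (5.49 and 4.65) and with no filter on low counts (4.31 and 3.47), and Rsad2 did without run 17992 (7.80). These passes are description, since both genes entered the filtered fits only through 4-OHT libraries. Without single libraries Rsad2 ran from 1.84 to 11.34 and Cmpk2 from 1.62 to 6.47. The highest values set 4-OHT against vehicle libraries at or near 0. The part of the prior count in them was not tested. In Foxa1-floxed lines Rsad2 reversed without line 1552A (-0.12) and ran from -0.38 (without Foxa1_4OHT replicate 2) to 1.45, and Cmpk2 passed with no filter (2.69). The Foxa2 minus Foxa1 difference passed with no filter for Rsad2 (3.51), and for Cmpk2 ran from -1.07 (without Foxa2_4OHT replicate 2) to 3.77.

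Without single hairpin libraries, Rsad2 ran from 3.99 to 6.28 and Cmpk2 from 5.22 to 5.99 under shScramble, and Rsad2 from 4.38 to 7.70 and Cmpk2 from 3.20 to 7.19 under shNKX2-1. Between hairpins with 4-OHT, Rnf144a ran from -6.21 to -5.49 and Cmpk2 from -2.20 to -1.72, and Rsad2 (-1.80) and Cmpk2 (-1.98) passed with no filter. With vehicle, Rnf144a passed by DESeq2 (-2.75) and with no filter (-2.74), and Cmpk2 ran from -3.61 to 0.38, positive without shNKX2-1_vehicle replicate 1. The hairpin difference of 4-OHT effects passed for Rnf144a by DESeq2 (-3.05) and with no filter (-3.09); it ran from -0.96 to 3.005 for Rsad2, with reversals to -0.96 without shScramble_vehicle replicate 1 and -0.33 without shNKX2-1_vehicle replicate 2, and from -2.34 to 1.63 for Cmpk2, positive without the same shNKX2-1 library. A lone library in a group was assumed to vary like the others. The cause of these shifts was not tested. No paired analysis was possible because the hairpin labels give no replicate numbers. Low counts limit all Rsad2 and Cmpk2 vehicle values.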
